A study of Drosophila melanogaster with 26 samples.

Results

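ChIP-seq peaks were obtained with 3F1, a rat monoclonal antibody to the remodeler subunit ACF1, and were set against peaks of the input DNA of the same chromatin. The members are 6 of the 26 libraries of the series, namely the 3 libraries titled ACF1-3F1 WT (replicates 1 to 3) and the 3 WT inputs of chromatin batches 1 to 3, and they were chosen by these labels and not by any measured value. Each 3F1 library was paired with the input that carries the same batch number in the labels, so that each pair shares 1 preparation of chromatin. Both kinds came from WT embryos of the Oregon-R strain aged 0 to 12 h, fixed with 3.7% formaldehyde, and no other antibody was used on batches 1 to 3. The rest of the series comprises 10 libraries made with rabbit antibodies to ACF1 (Rb1, Rb2) or RSF-1 from WT, acf1 or rsf1 mutant embryos, 3 libraries made with pre-immune serum and 7 further inputs. The pre-immune libraries came from WT embryos, and the further inputs from WT, acf1 or rsf1 embryos. The mutant embryos carry deletions in the gene of the protein named. A 3F1 library of acf1 mutant embryos was not analysed here, so that dependence of the 3F1 peaks on the ACF1 protein was not tested.

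ACF1 is the signature subunit of the ACF and CHRAC complexes, in which the ATPase ISWI slides nucleosomes and spaces them evenly. RSF-1 is the partner of the same ATPase in another remodeler. In a ChIP experiment fragments bound by the antibody are enriched over the sheared chromatin they came from, and the input is a sample of that chromatin sequenced without precipitation. Peaks in an input therefore mark places where fragments pile up without any antibody, such as repeats that differ in copy number from the assembled genome and chromatin that shears or is recovered unevenly. 3F1 recognises the N-terminal part of ACF1 and was bound to protein G beads, whereas the rabbit sera, including Rb1 and Rb2, which were raised against its C-terminal region, were collected on a mix of protein A and protein G beads.

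All 26 lists together held 50336 peaks, of which the 6 members supplied 12434. Each list gives only the sequence name, start and end of its peaks in Release 5 of the Drosophila genome. No read number, height or score accompanies a peak, so that the depth of each library is unknown and a missing peak means only that none was called. In the 6 lists all but 3 peaks were 200 bp wide and no peak was listed more than once.

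3F1 gave more peaks than the input of the same chromatin in all 3 pairs. The 3F1 libraries held 2574, 3928 and 2130 peaks for chromatins 1, 2 and 3, against 398, 2359 and 1045 peaks in their inputs. The lowest 3F1 list was thus shorter than the longest input list, and the 2 kinds overlapped when pairs were ignored. Within pairs the 3F1 list was 6.47, 1.67 and 2.04 times as long as its input, which corresponds to a mean difference of 1.48 ± 1.06 in log2(peaks + 1) (SD, n = 3 chromatins, p = 0.25 when signs were flipped over pairs in an exact, two-sided permutation test). With 3 pairs 0.25 is the smallest p that this test can give, and it applies to every test over pairs reported here. Without chromatin 1, which had the largest ratio, the mean difference was 0.88. Chromatin 2 yielded the longest list of both kinds.

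The inputs of chromatins 1 to 3 also differed from the 4 inputs of the other WT chromatins, which held 250, 263, 254 and 265 peaks. These are called later inputs here for their higher batch numbers only. Relative to these later inputs the mean log2 difference of the 3F1 libraries was 3.43 (two-sided exact permutation test of 3 against 4 libraries, p = 0.0286, the smallest possible). Chromatin batch and library kind cannot be told apart in that comparison, since 3F1 was used on none of the later chromatins.

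**Figure D1:**
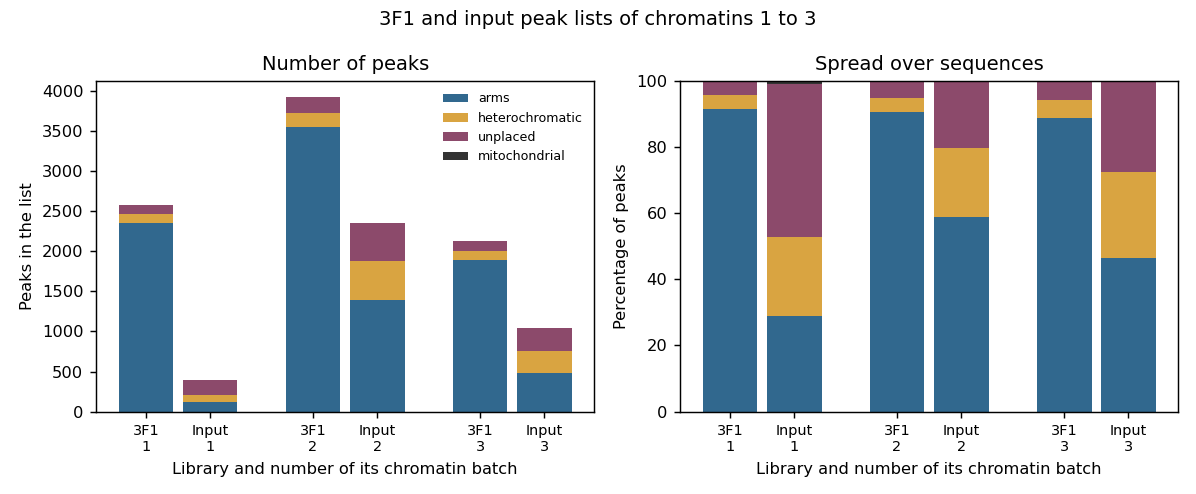
Peak lists of the 3 3F1 libraries, each left of the input of the same chromatin, as number of peaks (left) and as percentage of peaks (right), divided into chromosome arms, heterochromatic sequences, unplaced sequences and the mitochondrial genome. From 88.7 to 91.5% of 3F1 peaks lay on the arms, against 28.9 to 59.0% of input peaks.

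The 3F1 peaks lay on the assembled chromosome arms (2L, 2R, 3L, 3R, 4 and X), while the input peaks were spread over arms, heterochromatic sequences and unplaced contigs. On the arms were 91.5%, 90.6% and 88.7% of the 3F1 peaks of chromatins 1, 2 and 3, against 28.9%, 59.0% and 46.5% of the peaks of their inputs. The exact 95% confidence intervals of these input shares were 24.5 to 33.6%, 57.0 to 61.0% and 43.5 to 49.6%. Such intervals treat peaks as independent and cover counting error only. The groups did not overlap, and the difference averaged 45.5 ± 15.8 percentage points (SD, n = 3 chromatins, exact sign-flip permutation test p = 0.25). In the later WT inputs the arm share was lower still, at 11.2 to 17.9%.

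The surplus of 3F1 peaks was limited to the arms. There the 3F1 lists held 2355, 3557 and 1890 peaks, against 115, 1391 and 486 in their inputs, which is 20.5, 2.56 and 3.89 times as many. Off the arms the order was turned round in every pair, with 219, 371 and 240 peaks in 3F1 libraries, against 283, 968 and 559 in inputs. Sequences assigned to heterochromatin, whose names end in Het, held 4.35%, 4.38% and 5.45% of the 3F1 peaks, against 23.9%, 20.8% and 26.1% of input peaks. The unplaced sequences held 4.12%, 4.99% and 5.82% of 3F1 peaks, against 46.5%, 20.1% and 27.0% of input peaks. On the mitochondrial genome 1, 3 and 0 peaks were called with 3F1, against 3, 3 and 4 in the inputs.

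Among the 5 long arms the 3F1 peaks were spread without a marked preference. Chromatin 1 gave 415 peaks on 2L, 407 on 2R, 475 on 3L, 518 on 3R and 479 on X with 3F1, against 15, 24, 35, 14 and 23 peaks on the same arms in its input. The X chromosome carried 20.3%, 20.4% and 20.9% of the 3F1 arm peaks, against 20.0%, 22.7% and 22.8% of the arm peaks of the inputs. The inputs thus lay on both sides of the narrow range of the 3F1 libraries. The small chromosome 4, much of which is heterochromatic, held 61, 36 and 58 peaks in 3F1 libraries, against 4, 7 and 5 in inputs. As a share of arm peaks these were 2.59%, 1.01% and 3.07% with 3F1, against 3.48%, 0.503% and 1.03% in inputs, and neither kind was higher throughout. Among the 3F1 libraries, that of chromatin 2 had the most arm peaks but the fewest on chromosome 4.

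Position along an arm separated the kinds as well. When each long arm was divided into 5 equal stretches, the stretch nearest the centromere held 20.6%, 20.8% and 22.4% of the 3F1 peaks, close to an even spread, against 57.7%, 34.7% and 46.8% of the input peaks. Neighbouring arm peaks of a library lay a median of 15.4, 8.99 and 19.7 kb apart with 3F1, against 32.4, 12.0 and 21.5 kb in inputs. A neighbour within 1 kb was found for 6.67%, 7.98% and 6.51% of 3F1 arm peaks, against 12.2%, 12.0% and 9.88% of input arm peaks. Input peaks were thus fewer on the arms but more often close to another peak in all 3 pairs.

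Next the peaks shared between lists were counted, with an overlap of at least 50 bp taken as shared. The 3F1 library of chromatin 1 shared 100 of its 2574 peaks with its own input (3.89%, exact 95% confidence interval 3.17 to 4.71%). For chromatin 2 the number was 210 of 3928 (5.35%, 4.66 to 6.10%), and for chromatin 3 it was 82 of 2130 (3.85%, 3.07 to 4.76%). With the inputs of the other 2 chromatins the 3F1 libraries shared 3.23 to 5.07% of their peaks. The mean over own inputs was 4.36 ± 0.85% (SD, n = 3), against 4.11% over the 6 pairs of unlike chromatin, a difference of 0.25 percentage points (one-sided exact permutation over the 6 possible pairings, p = 0.333, where 0.167 is the smallest possible). Without chromatin 2 the difference was −0.19 points, so that its sign rested on this pair. In chromatins 1 and 2 the own input shared the most 3F1 peaks of the 3 inputs, and in chromatin 3 it shared the fewest. With 6 pairings the threshold of 0.05 was out of reach, so that the test gives no decision on whether sharing was higher within pairs. The 4 inputs of later chromatins, which had no preparation in common with 3F1, shared 2.95 to 7.61% of the 3F1 peaks. The study's supplement lists the inputs of chromatins 1 to 3 as the input controls of these 3F1 profiles. Whether their reads entered the calling of peaks is not stated. If they did, the calling itself could have lowered sharing with the own input and affected counts of regions without own-input peaks. This was not tested, and the counts describe the lists as they were called.

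Seen from the inputs, 25.1%, 8.90% and 7.85% of the input peaks of chromatins 1, 2 and 3 overlapped a peak of their own 3F1 library. The mean of 14.0% lay below the mean of 17.1% for 3F1 libraries of other chromatins, which ranged over 3.52 to 43.2% (difference −3.18 points, one-sided exact permutation p = 1 for higher sharing within pairs). The difference was −0.29 points without chromatin 2 and −6.35 points without chromatin 3. The highest value, 43.2%, belonged to the short input list of chromatin 1 set against the long 3F1 list of chromatin 2. All 3 inputs shared most with this 3F1 library, whichever chromatin they came from.

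Most of what a 3F1 library did share with its input lay off the arms. Of the peaks in common, 83 of 100, 164 of 210 and 68 of 82 were on heterochromatic, unplaced or mitochondrial sequences for chromatins 1, 2 and 3, which left 17, 46 and 14 on the arms. On the arms only 0.72 to 1.29% of 3F1 peaks were found in the own input. Off the arms the shares were 37.9%, 44.2% and 28.3% of 219, 371 and 240 peaks. The few 3F1 peaks outside the arms were thus called in input DNA far more often than the many on them, in all 3 libraries.

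**Figure D2:**
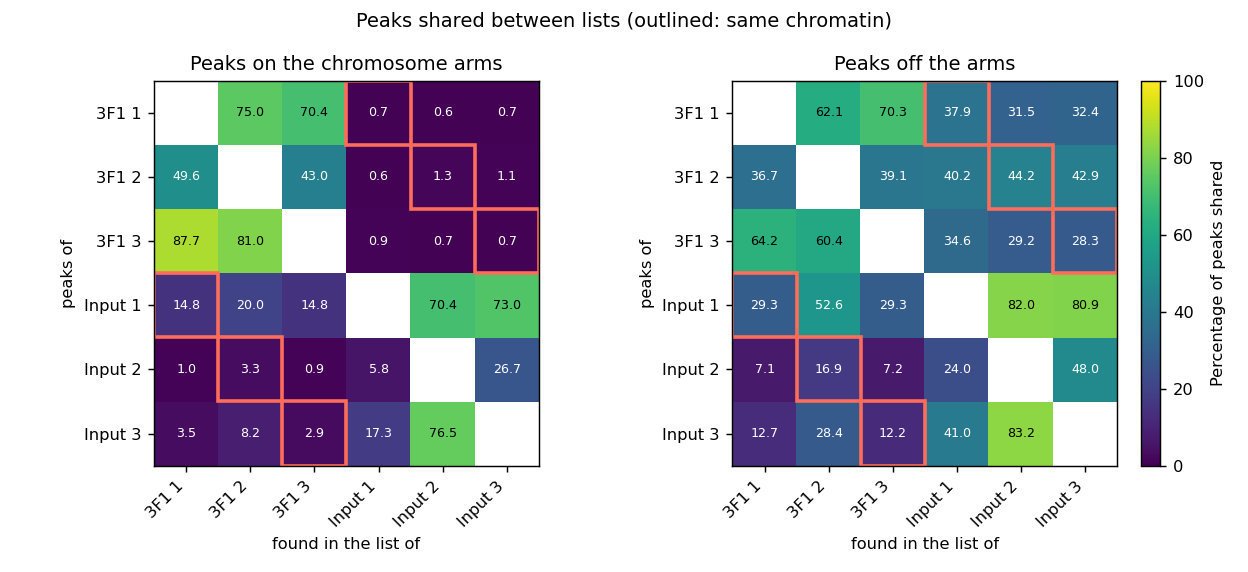
Percentage of the peaks of each library (vertical axis) that overlap a peak of another library by at least 50 bp (horizontal axis), for peaks on the arms (left) and off the arms (right), with 3F1 libraries before inputs and pairs of the same chromatin outlined. On the arms the 3F1 peaks found in an input stay between 0.6 and 1.3%, whereas 43.0 to 87.7% are found in another 3F1 library.

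By contrast, 3F1 libraries of different chromatin shared much of their lists. The 3F1 peaks of chromatin 3 were found in the 3F1 lists of chromatins 1 and 2 at 85.1% and 78.6%. Those of chromatin 1 were found in the lists of chromatins 2 and 3 at 73.9% and 70.4%. Of the longest list, that of chromatin 2, 48.4% and 42.6% were found in the lists of chromatins 1 and 3. For the 3 pairs of inputs 78.6 to 80.1% of the shorter list was found in the longer one. Of the longer input lists less was shared, namely 13.3% and 35.5% of the peaks of input 2 with inputs 1 and 3, and 30.0% of the peaks of input 3 with input 1.

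Expressed as a percentage of the shorter list, likeness within a kind averaged 79.2% for 3F1 and 79.1% for input. Between 3F1 and input it averaged 14.0% for the same chromatin (7.85 to 25.1%, 3 pairs) and 17.2% for different chromatin (3.52 to 43.2%, 6 pairs). These values depend on the measure, because the shorter list sets them. As a share of the merged regions of both lists, 41.4%, 62.7% and 38.2% were common to 2 3F1 libraries, against 12.8%, 27.7% and 32.6% common to 2 inputs. By this measure 3F1 and input had 2.65 to 3.48% of regions in common for the same chromatin and 1.71 to 4.17% for different chromatin. With chromatin always different, like kinds exceeded unlike kinds by 62.0 points of the shorter list (exact permutation of the kind within each of the 3 chromatins, two-sided p = 0.25, the smallest possible). The ranges for same and different chromatin overlapped by both measures, and all 6 pairs of like kind exceeded all 9 pairs of unlike kind.

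Measured from the 3F1 peaks, distances gave the same order. On the arms the nearest peak of the own input lay a median of 709, 31.1 and 129 kb away from a 3F1 peak, and only 2.17%, 7.68% and 4.60% of the 3F1 peaks had one within 1 kb. To the nearest peak of another 3F1 library the median was 0.013 to 4.63 kb. Input peaks were sparser than 3F1 peaks, so that from their side the median distance to the own 3F1 library was smaller, at 4.39, 7.59 and 17.7 kb. Measured from the input peaks the order did not hold throughout. Peaks of input 2 lay a median of 432 and 20.75 kb from those of inputs 1 and 3. Peaks of input 3 lay 147 and 0.045 kb from those of inputs 1 and 2, and peaks of input 1 lay 0.06 and 0.054 kb from those of inputs 2 and 3. The 2 largest of these medians were towards input 1, the shortest list. Where peaks did overlap, their centres coincided closely whichever kinds were compared. The median offset was 10 to 14 bp between 3F1 libraries, 7 to 13.5 bp between 3F1 and its own input, and 7 to 30 bp between 3F1 and the other inputs.

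Peaks of the 6 libraries were then merged into 7084 regions, of which 5698 lay on the arms. A region here is a run of peaks that overlap by at least 50 bp, and it was assigned to every library with a peak in it. At least 1 3F1 library had a peak in 4751 regions and at least 1 own input in 2616. Both kinds met in 283 regions, of which 77 were on the arms, and 70 regions were found in all 6 libraries, 9 of them on the arms.

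A peak in all 3 3F1 libraries and in no own input was found in 1425 regions, which is 20.1% of all regions. The reverse pattern, all 3 inputs and no 3F1 library, was found in 147 regions or 2.08%. The list of input 1 held 398 peaks, which limits this second count, whereas the shortest 3F1 list held 2130. Of the 1425 regions 1390 were on the arms, whereas of the 147 only 58 were. Each arm contributed a similar portion of its regions to the pattern of all 3F1 and no input, namely 238 of 986 on 2L, 224 of 1104 on 2R, 282 of 1152 on 3L, 329 of 1191 on 3R, 20 of 88 on 4 and 297 of 1177 on X, or 20.3 to 27.6%. Off the arms it was 35 of 1386 (2.53%). When all 10 inputs of the series were considered instead of the 3 own inputs, 1408 regions of this kind were counted.

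The regions called in every 3F1 library together with at least 1 own input numbered 108, and 86 of these were off the arms. When an overlap of at least 150 bp was required, 53 such regions were found. Of the 108 regions, 84.3% held a peak in at least 1 later WT input and 51.9% in at least 1 pre-immune library. These shares were 1.12% and 1.68% of the 1425 regions without an own-input peak, and 5.45% and 3.43% of all 7084 regions. The 2 classes were themselves split by input peaks, and they differ in place. For the 22 of the 108 regions on the arms the shares were 45.5% and 36.4%, against 1.05% and 1.91% of all arm regions.

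Regions called in both libraries of 1 chromatin and in no other member were counted as well. Whether they reflect a trait of that chromatin was not tested. There was 1 such region for chromatin 1, 24 for chromatin 2, of which 12 were on the arms, and 0 for chromatin 3. The crossed pairs of 3F1 and input gave 0 to 8 regions each. The number in chromatin 2, where both lists are the longest, was the highest of the 9 pairs. The only arm region of chromatin 1 was chr2R:11857203-11857467. The first 2 of chromatin 2 were chr2L:4393810-4394145 and chr2L:9957020-9957352, which held peaks of 4 and 3 of the 10 rabbit antibody libraries.

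The rabbit antibody libraries provided a readout that the selection of members had not used. These 10 libraries (1 with Rb1 and 3 with Rb2 from WT, 1 with Rb1 and 2 with Rb2 from acf1, 2 with RSF-1 antibody from WT and 1 from rsf1 embryos) came from other chromatin. At least 5 of them had a peak at 58.9%, 52.1% and 65.7% of the 3F1 peaks of chromatins 1, 2 and 3, against 21.9%, 3.35% and 7.66% of the peaks of their inputs. The groups did not overlap, and the difference averaged 48.0 ± 10.5 points (SD, n = 3 chromatins, exact sign-flip permutation test p = 0.25). On the arms alone the shares were 60.3%, 54.5% and 67.9% with 3F1, against 8.70%, 1.01% and 2.68% in inputs.

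The same was seen in the 3 of these libraries made with rabbit antibodies to ACF1 on chromatin of acf1 mutant embryos. Being part of the set above, they are not a separate readout. At least 1 of these 3 libraries had a peak at 72.3%, 68.9% and 78.8% of the 3F1 peaks of WT chromatins 1, 2 and 3, against 25.4%, 5.43% and 10.9% of the peaks of their inputs. The difference averaged 59.4 ± 11.1 points (SD, n = 3 chromatins, exact sign-flip permutation test p = 0.25). When a peak in at least 2 of the 3 mutant libraries was required, the difference was 23.6 points. With pre-immune serum at least 1 of 3 libraries had a peak at 6.06%, 2.90% and 6.95% of 3F1 peaks, against 16.6%, 2.08% and 5.17% of input peaks, so that these groups overlapped.

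**Figure D3:**
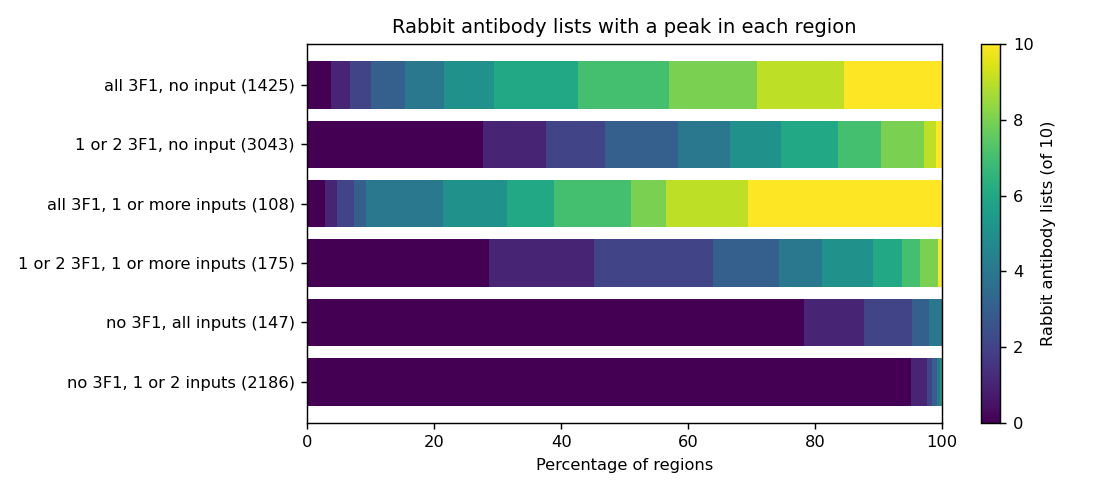
Regions of the 6 libraries divided by their 3F1 and input peaks, with the number of regions in brackets, and the percentage of each class (horizontal axis) found in 0 to 10 of the rabbit antibody libraries (colour). The median was 7 libraries for the 1425 regions in all 3F1 libraries and no input. It was also 7 for the 108 regions in all 3F1 libraries and 1 or more inputs, and 0 for the 147 regions in all inputs and no 3F1 library.

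Of the 1425 regions in all 3F1 libraries and no own input, 1119 (78.5%, against 31.9% of all 7084 regions) had peaks in at least 5 of the 10 rabbit antibody libraries. All 10 called 220 (15.4%, against 3.98% of all regions), and none called 52 (3.65%), against 3141 of all 7084. An acf1 mutant library made with Rb1 or Rb2 called 1254 of the 1425 (88.0%, against 44.1% of all regions). The RSF-1 library of rsf1 mutant embryos called 1244 (87.3%, against 42.1% of all regions). Of the 108 regions in all 3F1 libraries and at least 1 own input, 78.7% were called in at least 5 rabbit antibody libraries and 30.6% in all 10. In these 108 the acf1 and rsf1 mutant shares were 77.8% and 62.0%. For the 1425 regions single libraries ranged from 23.4% with Rb1 on acf1 chromatin to 90.1% with RSF-1 antibody on WT chromatin. With Rb1 the share was 23.4% on acf1 chromatin (1984 peaks in the list), against 40.1% on WT chromatin (1001 peaks). With Rb2 it was 40.6% and 86.6% on acf1 chromatin (2226 and 5184 peaks), against 71.7%, 86.3% and 58.0% on WT chromatin (2556, 4009 and 3755 peaks). Of the acf1 libraries 2 thus lay below the WT libraries of the same antibody, and 1 lay just above them. The pre-immune libraries, whose lists held 621, 1 and 379 peaks, called 1.26%, 0% and 0.70% of the 1425 regions, so that the 0% came from a list of 1 peak. Rabbit antibody lists held 1001 to 5636 peaks. The 7 other inputs of the series, from WT, acf1 or rsf1 embryos, called 0.21 to 0.98% of these regions.

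In the 147 regions of all inputs and no 3F1 library the median was 0 of 10 rabbit antibody libraries, and 0 regions were found in at least 5. At least 1 rabbit antibody library called 21.8% of these regions, against 55.7% of all regions. At least 1 of the 4 later WT inputs called 36.1%, against 5.45% of all regions. On the arms, where 58 of the regions lay, 15.5% were called in a rabbit antibody library, against 62.1% of all arm regions. In a later WT input 12.1% were called, against 1.05% of all arm regions. The rabbit antibody lists were more numerous and longer than those of the later WT inputs, so that each share is read against its own share of all regions. Most of all regions held a 3F1 peak (4751 of 7084), which the 147 regions lack by definition. Of the 2186 regions in 1 or 2 inputs and no 3F1 library, 4.80% were called in a rabbit antibody library and 2.70% in a later WT input. Both shares were below those of the 147 regions.

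The long lists of chromatin 2 were of different make-up in ChIP and input. The 3F1 library of chromatin 2 alone accounted for 1739 regions, of which 71.5% had a peak in at least 1 rabbit antibody library and 57.9% in the RSF-1 library of rsf1 mutant embryos. The input of chromatin 2 alone accounted for 1459 regions, of which 3.84% had a peak in any rabbit antibody library. The regions found with 3F1 in chromatin 1 alone (371) or chromatin 3 alone (162) had a rabbit antibody peak in 46.6% and 72.8% of cases. In the rsf1 mutant library these were called at 14.6% and 20.4%. Over all 7084 regions the shares were 55.7% in any rabbit antibody library and 42.1% in the rsf1 mutant library. The regions of chromatin 1 alone thus lay below both shares.

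The lines of the deposited lists are not ordered by position, and their order went along with sharing. Each list was divided into 5 blocks of equal size from the first line to the last. Of the 3F1 peaks in the first block, 95.1%, 90.1% and 97.9% were found in both other 3F1 libraries for chromatins 1, 2 and 3. In the last block these shares were 33.1%, 14.7% and 34.3%. On the arms lay 98.4%, 97.6% and 97.4% of the first block, but 66.7%, 67.6% and 58.0% of the last. Sharing with the own input ran the other way, at 1.55%, 2.16% and 2.11% of the first block and 11.5%, 14.7% and 9.86% of the last.

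In the inputs sharing with 3F1 was most frequent in the first lines, although no more than 50% of any block was shared. Of the first block of input peaks 50%, 24.8% and 24.4% were found in the own 3F1 library, and of the last block 15.2%, 6.37% and 2.39%. The decline was not steady, since the last block exceeded the one before it in inputs 1 and 2. Sharing between 3F1 and input was thus highest in the last block of the 3F1 lists and in the first block of the input lists. What sets the order of lines is not given in the sources used here, and these shares are a description without a test.

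**Figure D4:**
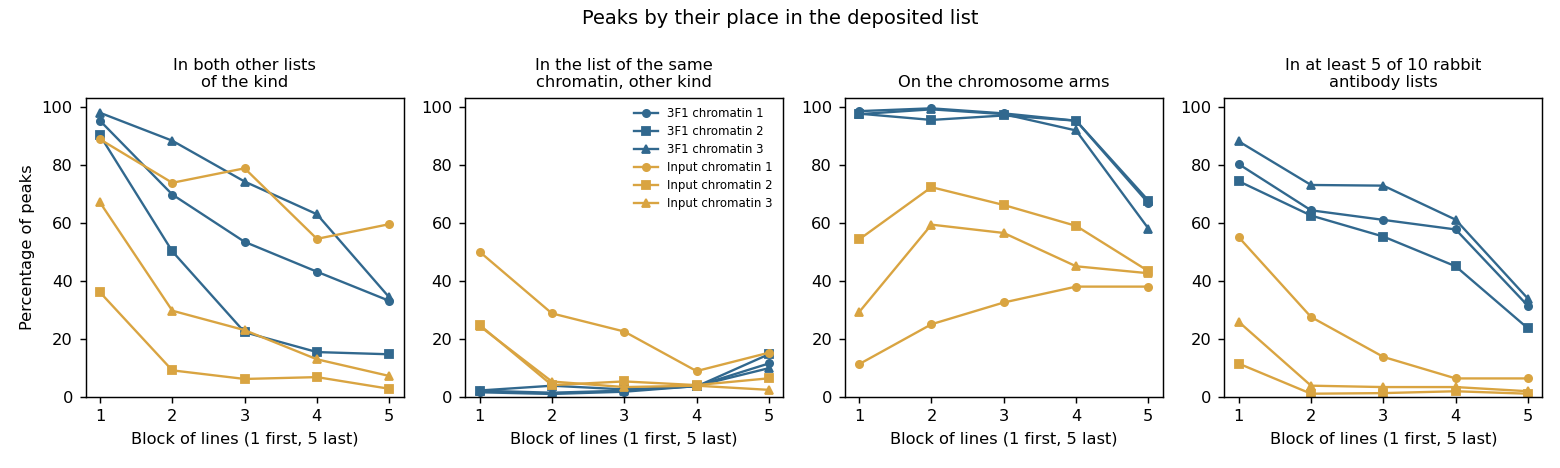
Percentage of peaks (vertical axes) in 5 equal blocks of lines of each deposited list (horizontal axes), for 3F1 (blue) and input (yellow) of chromatins 1, 2 and 3. From the first to the last block the 3F1 peaks found in both other 3F1 libraries change from at least 90.1% to at most 34.3%, and those found in the own input from at most 2.16% to at least 9.86%.

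Single regions illustrate each pattern, with positions in Release 5. A peak in all 3 3F1 libraries and in none of the 10 inputs was found in 1385 arm regions. All 10 rabbit antibody libraries also called 215 of these 1385, against 248 (4.35%) of all 5698 arm regions. The first of the 215 by position on each arm were chr2L:490157-490374, chr2R:75579-75787, chr3L:506072-506287, chr3R:46587-46812, chr4:230695-230937 and chrX:139820-140040. None of them held a peak of a pre-immune library.

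Of the 9 arm regions in all 6 libraries, the first 5 by position were chr2L:357765-358089, chr3L:7677516-7677819, chr4:1288217-1288574, chrX:13773-14103 and chrX:8189420-8189767. They were called in 4, 5, 8, 10 and 9 of the 10 inputs and in 9, 4, 10, 10 and 9 of the 10 rabbit antibody libraries, in the same order of regions. The region at chrX:13773-14103, close to the tip of the chromosome, was therefore found in every input. The first 3 arm regions with a peak in all own inputs and in no 3F1 library were chr2L:52874-53145, chr2L:355482-355799 and chr2L:975904-976117. No rabbit antibody library called any of them, and the first held a peak of 1 pre-immune library. The input-only region chr2L:355482-355799 and the region of all 6 libraries at chr2L:357765-358089 lie close together on the same arm.

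The 3 peaks that were not 200 bp wide fell on 1 place of heterochromatic sequence 2LHet. There the 3F1 library of chromatin 2 had a peak of 80 bp (368048 to 368127), against 160 bp (368009 to 368168) in the input of chromatin 2 and 134 bp (368035 to 368168) in that of chromatin 3. The merged region was found in all 6 libraries, in all 10 rabbit antibody libraries and in all 10 inputs.

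No window of 50 kb on the arms held more than 4 regions common to the 3 3F1 libraries. The number that an even spread would give was not calculated. In windows of 50 kb the most such regions were 3 on 2L (1100001 to 1150000), 4 on 2R (11800001 to 11850000), 4 on 3L (14000001 to 14050000), 4 on 3R (750001 to 800000), 3 on 4 (700001 to 750000) and 4 on X (4400001 to 4450000), taking the first window where several had the same number. The windows on 3R, 4 and X held 0 regions with an own-input peak, and those on 2L, 2R and 3L held 1, 2 and 1.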

How the data were processed

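Per the study's methods, reads were mapped by the authors to Release 5 (dm3) with Bowtie 1.1.1, keeping unique hits, and peaks were called with HOMER under default settings. The deposited values are start and end positions of peaks, with no score, and the sequencing depth of single libraries was not given in the sources used here. All files gave 1 list per library.

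Positions were written 1-based. Peaks sharing at least 50 bp were counted as shared, and chained overlaps of at least 50 bp were merged into regions. Names ending in Het were taken as heterochromatic and names beginning with U as unplaced. Arm lengths for the 5 stretches were taken as the last peak end. Libraries were paired by the chromatin batch number in the labels. Peak numbers were compared as log2 after adding 1. Exact permutation tests were used throughout, with sign flips over chromatins, inputs exchanged among the 6 pairings, or kinds exchanged within chromatins (8 assignments), at a threshold of 0.05. Libraries of one kind came from separate chromatin batches.

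Regions were named by position within each pattern, as stated beside them, and on ties the first was taken. Members, rules and comparisons were chosen with earlier results of these data known. Alternatives were an overlap of at least 1 or 150 bp, arms alone, no pairing, later WT inputs or all 10 inputs, other library minima, another likeness measure, untransformed numbers and each chromatin left out. Calculations were run in Python 3.11.15 with scipy 1.17.1, numpy 2.4.6 and, for plots, matplotlib 3.10.9, and were tested on simulated data. Genes were not annotated, since the annotation provided was of Release 6, and neither gene names nor sequences are given.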

Additional observations from a re-analysis of the deposited data

Results flagged for a closer look

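Among the 7 WT inputs of the series, the input of chromatin 2 stood apart with 2359 peaks, against 1045 in the next highest, that of chromatin 3. In untransformed numbers the gap was 0.623 of the whole range of the 7 inputs, above the critical value of 0.568 at 95%. Chance alone marks about 1 in 20 groups of this size at each check. The gap was not examined on the log2 scale used for the tests. The same check flagged no WT input for arm share or rabbit antibody share. The 3F1 library of the same chromatin was also the longest of its kind. Without chromatin 2 the mean difference in log2 peak number was 1.86 and that in arm share 52.4 points. Likeness within a kind then exceeded that between kinds by 65.1 points, the rabbit antibody share differed by 47.6 points and the acf1 mutant share by 57.4 points. Regions in all 3F1 libraries and no own input then numbered 1712, those with an own input 102, and those in all inputs and no 3F1 library 222. Here all means the remaining libraries only, a looser rule, so that these counts cannot be compared directly with those of the full set.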

How the results depend on the processing

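The directions of all tested differences held under every alternative except for sharing with the own input, which ranged from −0.19 to 0.81 points with each chromatin left out in turn. With each chromatin left out, the difference in log2 peak number ranged from 0.88 to 1.86 and that in input peaks shared with the own 3F1 library from −6.35 to −0.29 points. Against the 4 later WT inputs, without pairing, the differences in log2 peak number (3.43) and arm share (76.3 points) reached p = 0.0286 (exact permutation tests). Without the replicate block the differences were 1.48 for peak number (exact p = 0.2), and 45.5, 63.0, 48.0 and 59.4 points for arm share, likeness, rabbit antibody share and acf1 mutant share (exact p = 0.1, the smallest possible). Regions in all 3F1 libraries and an own input numbered 53 with an overlap of 150 bp and 22 on the arms alone. Regions in all inputs and no 3F1 library numbered 58 on the arms alone, and ranged from 163 to 655 with each chromatin left out, the highest without chromatin 1, whose input list is the shortest, and 222 without chromatin 2. Regions in all 3F1 libraries and no input stayed between 1315 and 1788 under all alternatives. When a chromatin was left out, fewer libraries had to hold or lack a peak, so that those counts follow a looser rule. As read numbers are unknown, how weak an enrichment would be called cannot be stated, and it may differ between libraries.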
